A study of Mus musculus with 8 samples.

Results

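The genes described here are the 5 NF-κB subunits (Rel, Rela, Relb, Nfkb1 and Nfkb2) and 5 genes that restrain or modulate them (Nfkbia, Nfkbie, Nfkbiz, Bcl3 and Tnfaip3). They were picked by symbol as a family, with earlier results of these data known, and all 10 were found among the 24259 gene symbols of the count table. They were measured in 8 RNA-seq libraries of NP+IgDlowB220+ pre-GC B cells, which are B cells that bind the hapten NP and are developing toward germinal centers (GCs), from the draining lymph nodes of C57BL/6 mice 3 days after immunization with NP-OVA plus LPS in alum. All recipients were CD45.1 Sap-/- mice, whose own T cells cannot support GCs, and all received OT-II T cells, which recognise an ovalbumin peptide. The HET group (4 libraries) had CD4-CrexBcl6fl/+ helpers, in which Cre driven by Cd4 regulatory sequence removes 1 copy of Bcl6, and the WT group (4 libraries) had CD4-Cre helpers with both copies. The sequenced B cells were the recipients' own and carried neither allele, so no targeted gene was there to check the labels. Within a group, cells of several recipients were pooled before 4 samples of about 200 cells were sorted. P-values below therefore measure only technical spread, that of the sort and of the library, and an effect of the pool cannot be told apart from one of the group.

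NF-κB is a family of dimeric transcription factors. RelA, c-Rel and RelB (from Rela, Rel and Relb) carry activation domains, whereas p50 and p52 are processed from the precursors encoded by Nfkb1 and Nfkb2. IκBα and IκBε (Nfkbia and Nfkbie) hold dimers in the cytoplasm until the IKK kinases mark them for degradation. IκBζ and BCL3 (Nfkbiz and Bcl3) act in the nucleus with p50 or p52 dimers, and A20 (Tnfaip3) is a ubiquitin-editing enzyme that dampens signalling upstream of IKK. In B cells the antigen receptor and Toll-like receptors feed mainly the canonical arm (RelA, c-Rel and p50), and CD40, which receives CD40L from helper T cells, feeds both this and the noncanonical arm (RelB and p52). Several of these genes are themselves known NF-κB targets. The question here was whether their transcripts differed between B cells whose helpers had 1 or 2 intact copies of Bcl6.

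Many of these genes carried a κB motif, the sequence that NF-κB dimers bind, beside their start. The RefSeq promoter table (GRCm38.p6, 250 bases before to 50 bases after each start) held 7 of the 10 genes. The κB consensus, searched on both strands with overlapping matches merged, occurred in 6 of the 7 (85.7%) and not in that of Rela. It occurred in 4.51% of all 32851 promoters and in the promoter of 5.86% of the 8927 tested genes with one. A looser pattern, GGGNNNNNCC, occurred in 7 of 7 but also in 71.1% of those tested genes, so it says little about these ones. A match is a string of letters and no evidence of binding in these cells. The stretches below show the match nearest the start of 5 genes, the more upstream of the 2 separate matches before the first of the 3 Nfkb2 starts, and the last 30 bases before the start of Rela, which lacks one. Each is written 5′ to 3′ on the strand of the gene, with the κB match in capitals.
Nfkbia (chr12:55492648-55492696, minus strand): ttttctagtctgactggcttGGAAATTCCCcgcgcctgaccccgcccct
Nfkbie (chr17:45555574-45555623, plus strand): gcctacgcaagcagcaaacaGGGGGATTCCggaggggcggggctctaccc
Rel (chr11:23771031-23771081, minus strand): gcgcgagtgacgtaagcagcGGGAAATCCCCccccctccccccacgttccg
Nfkb2 (chr19:46304688-46304717, plus strand): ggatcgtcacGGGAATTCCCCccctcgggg
Tnfaip3 (chr10:19015411-19015442, minus strand): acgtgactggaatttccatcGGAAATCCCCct
Bcl3 (chr7:19822734-19822763, minus strand): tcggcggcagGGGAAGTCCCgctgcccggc
Rela (chr19:5637511-5637540, plus strand): ggaccccgagcgagccgcgctgcggagctt

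Counted from the first transcribed base in RefSeq, the match began 29 bases before the start in Nfkbia and 106 before in Nfkbie. It began 92 bases before the start in Rel and 2 bases after it in Bcl3. Nfkb2 held matches at 39 and 11 bases before its first RefSeq start, and Tnfaip3 at 125 and 12 bases before. The GENCODE M21 annotation starts these genes farther upstream, Nfkb2 at 46304320 and Tnfaip3 at 19015657. By that annotation these matches lie inside both genes. The stretch printed for Rela also lies inside its gene there (GENCODE start 5637483). Among the other pathway genes fixed for this report, the consensus was found in 6 of 21 NF-κB target genes with a promoter (28.6%), 3 of 8 ubiquitin regulators, 3 of 12 immediate early genes, 3 of 18 proximal signalling genes, 1 of 5 IKK kinase genes, 1 of 2 other IκB genes and 0 of 7 receptors.

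All 10 genes are protein-coding in GENCODE M21 (GRCm38), and all were well above the counting floor. Total counts ranged from 6652386 to 12559189 per library, at which 3 counts correspond to 0.241 to 0.455 counts per 1000000 (CPM, scaled between libraries by TMM). The lowest count of any of the 10 genes was 155 (Nfkbiz, HET replicate 4) and the highest 7149 (Nfkbia, HET replicate 1), and together they took 0.131% to 0.182% of the counts of a library. All 10 passed the filter on low counts that kept 12744 genes. Their variation between libraries within a group was close to that of other genes at such levels. The median coefficient of variation in edgeR, which calls it biological, was 0.174. It was 0.184 over the 4748 genes at or above the level of the lowest of the 10, and 0.313 over all tested genes. As each group was sorted from a pool, this is technical spread.

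No transcript of the 10 differed between HET and WT past the adjusted threshold of 0.05 (edgeR quasi-likelihood test, Benjamini-Hochberg over all tested genes), where 0.0235% of all genes were called. DESeq2 also called 0 of the 10, against 0.687% of the genes it tested. At an unadjusted p under 0.05, edgeR picked 1 of the 10, Rel, which was lower in HET, and DESeq2 picked Rel and Tnfaip3, both lower. The same unadjusted threshold was passed by 7.22% of all genes in edgeR (3.34% higher and 3.88% lower in HET) and by 8.91% in DESeq2, so these counts are close to the background. For none of the 10 were the HET and WT libraries separate, whereas 4.61% of all tested genes had groups that did not overlap. In the fit 4 genes were higher and 6 lower in HET, with a median log2 fold change of −0.12, against −0.001 over all tested genes, of which 6356 were higher and 6388 lower.

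**Figure D1:**
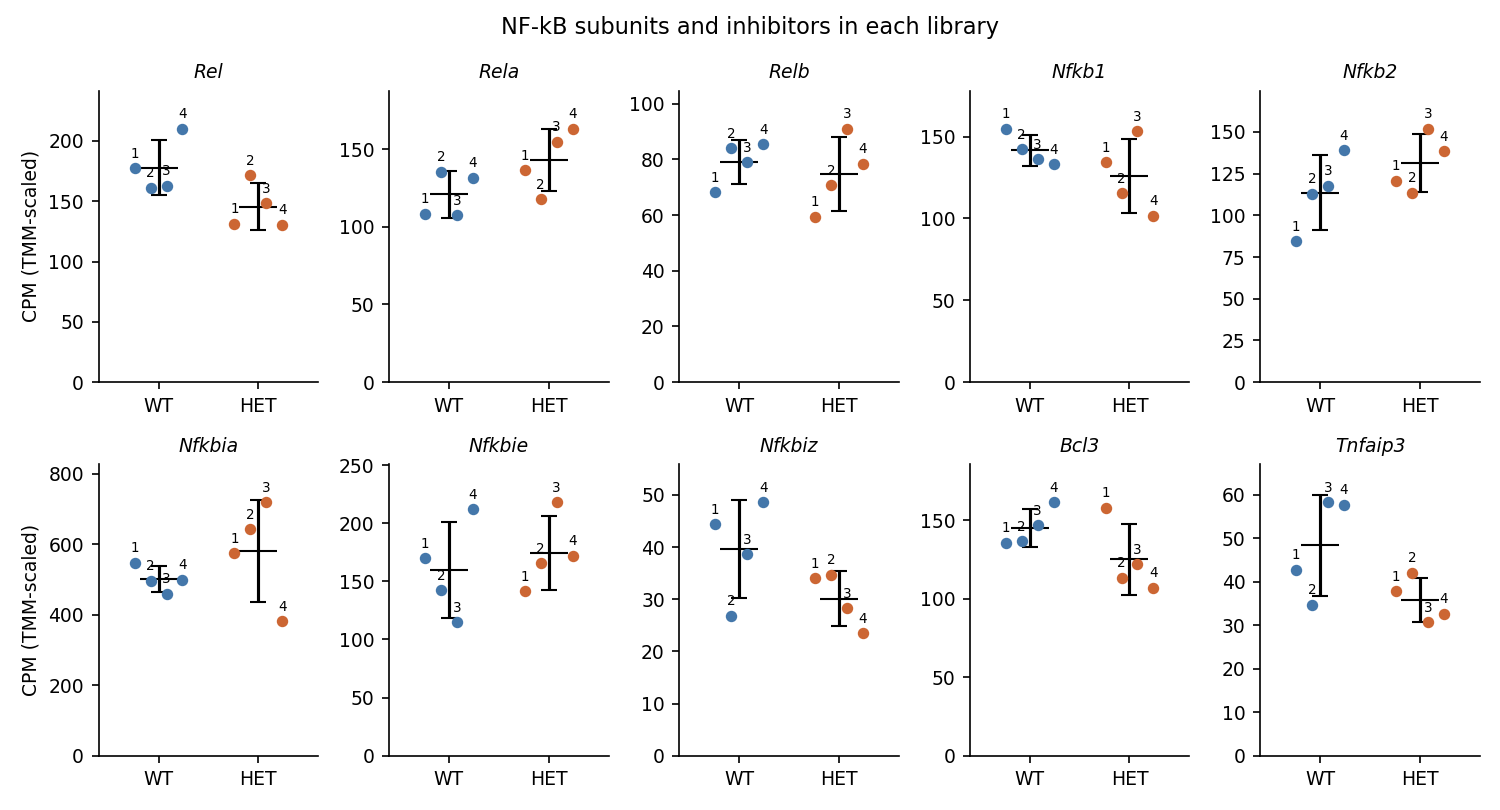
CPM of each of the 10 genes (vertical axis, starting at 0) in the 4 HET and 4 WT libraries, with the replicate number beside each point and bars for mean ± SD. The 2 groups overlap for every gene; the lowest HET value of Nfkbia, 382 CPM, is that of replicate 4, while the WT values lie between 459.9 and 548.

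Rel encodes c-Rel, the subunit most closely tied to B cell proliferation after activation (chr11:23736847-23770970, minus strand). It measured 131, 172, 148 and 131 CPM in HET replicates 1 to 4 and 177, 161, 163 and 210.3 CPM in WT replicates 1 to 4. 3 HET libraries lay below every WT library, and HET replicate 2 lay within the WT range. The means were 146 ± 19.3 CPM in HET and 178 ± 22.7 CPM in WT (SD, n = 4 each). The log2 fold change was −0.29 (SE 0.13; 95% interval −0.56 to −0.02; unadjusted p = 0.0382; edgeR adjusted p = 0.647). In edgeR it was −0.38 without HET replicate 2 (unadjusted p = 0.0140) and −0.20 without WT replicate 4 (unadjusted p = 0.144). Of 17 alternative settings, 9 gave Rel an unadjusted p under 0.05.

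Rela, which encodes the RelA (p65) subunit (chr19:5637483-5648130, plus strand), had a fold change of the opposite sign. It measured 136, 118, 155 and 163 CPM in HET and 108, 136, 108 and 132 CPM in WT. A total of 3 HET libraries lay above every WT library, again with HET replicate 2 as the exception, so that the 2 groups overlapped through 1 HET library for both Rel and Rela. The log2 fold change of Rela was 0.24 (SE 0.13; 95% interval −0.05 to 0.53; edgeR adjusted p = 0.748). Taken as a ratio within each library, which was chosen after the counts were seen and is given with no test, Rela TPM was 5.94 ± 1.39 times that of Rel in HET and 4.05 ± 0.629 times in WT (SD, n = 4 each). The ratio was 6.15, 4.06, 6.18 and 7.39 in HET replicates 1 to 4 and 3.62, 4.98, 3.91 and 3.71 in WT replicates 1 to 4. HET replicate 2 again fell within the WT range.

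Relb encodes RelB, the activating subunit of the noncanonical arm (chr7:19606217-19629438, minus strand). It measured 59.4, 70.7, 91.1 and 78.4 CPM in HET and 68.1, 84.0, 79.0 and 85.5 CPM in WT. The HET values spanned the whole WT range, from the lowest to the highest library of the 8. Its log2 fold change of −0.08 (SE 0.15; 95% interval −0.41 to 0.25; edgeR adjusted p = 0.948) was the smallest of the 10 in size.

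Nfkb1 encodes the p105 precursor of p50 (chr3:135584655-135691547, minus strand). It measured 134, 115, 153 and 102 CPM in HET and 155, 142, 136 and 133 CPM in WT. The WT libraries were tight (142 ± 9.67 CPM, SD, n = 4) and the HET libraries spread around a lower mean (126 ± 22.5 CPM, SD, n = 4), with 2 of them below every WT library. This gave a log2 fold change of −0.17 (SE 0.13; 95% interval −0.45 to 0.12; edgeR adjusted p = 0.842).

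Nfkb2 encodes the p100 precursor of p52, which also acts as an inhibitor of RelB until it is processed (chr19:46304320-46312385, plus strand). It measured 121, 114, 152 and 138 CPM in HET and 84.5, 113, 118 and 139 CPM in WT. The lowest library was WT replicate 1 and the highest HET replicate 3, with the rest mixed. In the fit, HET over WT was 0.21 on the log2 scale (SE 0.15; 95% interval −0.12 to 0.54; edgeR adjusted p = 0.825). Of its 4584 exonic bases, 299 also lie in Psd and 531 in a noncoding transcript, both on the opposite strand. Reads from these bases cannot be assigned to either gene with certainty. Whether the libraries kept strand, or the counting used it, was not stated in the sources used here.

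**Figure D2:**
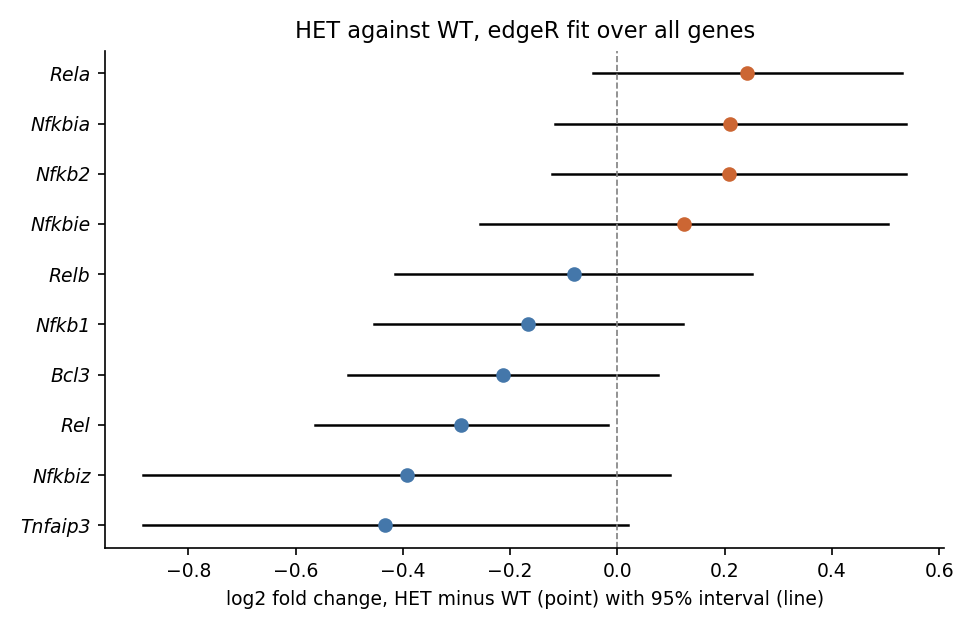
Log2 fold change (HET over WT, horizontal axis) of the 10 genes with its 95% interval from the edgeR fit. Only the interval of Rel, −0.56 to −0.02, leaves out 0 before adjustment, and its adjusted p was 0.647.

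Nfkbia, which encodes IκBα (chr12:55489410-55492647, minus strand), was the most abundant of the 10 transcripts. It measured 575, 643, 720.2 and 382 CPM in HET and 548, 497, 459.9 and 500.1 CPM in WT. A total of 3 HET libraries were above every WT library and HET replicate 4 was below them all, so the HET libraries varied by 24.96% of their mean (SD over mean) and the WT libraries by 7.21%. The log2 fold change was 0.21 (SE 0.15; 95% interval −0.12 to 0.54; edgeR adjusted p = 0.817). Without HET replicate 4 it was 0.37, and the adjusted p was 0.4895. Without HET replicate 3, the highest library, it was 0.09.

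Nfkbie encodes IκBε, an inhibitor that pairs preferentially with c-Rel and RelA dimers (chr17:45555703-45563169, plus strand). It measured 141, 166, 218 and 172 CPM in HET and 170.2, 142, 115 and 212 CPM in WT. The groups were interleaved over almost the whole range. A log2 fold change of 0.12 was fitted (SE 0.18; 95% interval −0.26 to 0.50; edgeR adjusted p = 0.924), and without HET replicate 3 it was 0.001.

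Nfkbiz encodes IκBζ (chr16:55811375-55838899, minus strand). It measured 34.0, 34.7, 28.3 and 23.5 CPM in HET and 44.4, 26.8, 38.6 and 48.6 CPM in WT. A total of 3 WT libraries were above every HET library and WT replicate 2 was among the lowest. Its log2 fold change was −0.39 (SE 0.23; 95% interval −0.88 to 0.10; edgeR adjusted p = 0.773). It was −0.54 without WT replicate 2 (edgeR adjusted p = 0.527) and −0.28 without WT replicate 4, the highest library.

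Bcl3 encodes the nuclear protein BCL3, a partner of p50 and p52 homodimers (chr7:19808462-19822770, minus strand). It measured 158, 113, 122 and 107 CPM in HET and 136, 136, 147 and 162 CPM in WT. A total of 3 HET libraries were below every WT library, and HET replicate 1 was the second highest of the 8. The log2 fold change was −0.21 (SE 0.13; 95% interval −0.50 to 0.08; edgeR adjusted p = 0.791). It was −0.34 without HET replicate 1 (edgeR adjusted p = 0.482) and −0.14 without HET replicate 4, the lowest library. Of its 2475 exonic bases, 161 also lie in an antisense transcript, with the same limit on strand as for Nfkb2.

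Tnfaip3, which encodes A20 (chr10:19000910-19015657, minus strand), had the largest fold difference of the 10, but on a wide interval. It measured 37.8, 42.1, 30.7 and 32.6 CPM in HET and 42.8, 34.7, 58.3 and 57.7 CPM in WT. WT replicates 1, 3 and 4 were above every HET library, and WT replicate 2 lay inside the HET range. The means were 35.8 ± 5.15 CPM in HET and 48.4 ± 11.6 CPM in WT (SD, n = 4 each), with a log2 fold change of −0.43 (SE 0.21; 95% interval −0.88 to 0.02; unadjusted p = 0.0591; edgeR adjusted p = 0.706). In DESeq2 the unadjusted p was 0.0491 and the adjusted p 0.557. Without WT replicate 2 the log2 fold change was −0.56 with an adjusted p of 0.495 in edgeR. Without WT replicate 3, the highest library, it was −0.33.

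The intervals show which differences between these libraries the technical spread allowed. Like the p-values, they measure only the spread of the sort and of the library, so they do not bound an effect of the helpers. The upper bound for Rela, Nfkb2 and Nfkbia corresponds to a fold of 1.44, 1.45 and 1.45 in HET over WT, and the lower bound for Tnfaip3 and Nfkbiz to a fold of 0.542 and 0.542. A difference up to those bounds was within the error of the measurement, and a p above the threshold does not show that the levels were equal.

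The highest and lowest values over the 8 libraries were spread over 6 of them. HET replicate 3 held the highest value of 4 genes (Nfkb2, Relb, Nfkbia and Nfkbie) and the lowest of Tnfaip3. HET replicate 4 held the lowest value of 5 genes (Nfkb1, Rel, Nfkbia, Nfkbiz and Bcl3) and the highest of Rela. WT replicate 4 held the highest value of Rel, Nfkbiz and Bcl3, and WT replicate 3 the highest of Tnfaip3 and the lowest of Rela and Nfkbie. WT replicate 1 held the highest value of Nfkb1 and the lowest of Nfkb2, HET replicate 1 the lowest of Relb, and replicate 2 of either group held none. Leaving out single libraries changed the number of genes with an unadjusted p under 0.05 from 1 to between 0 and 3, and left 0 of the 10 past the adjusted threshold in each of the 8 refits. The direction held in every refit for 9 genes, and for Relb it turned to 0.02 without HET replicate 1.

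**Figure D3:**
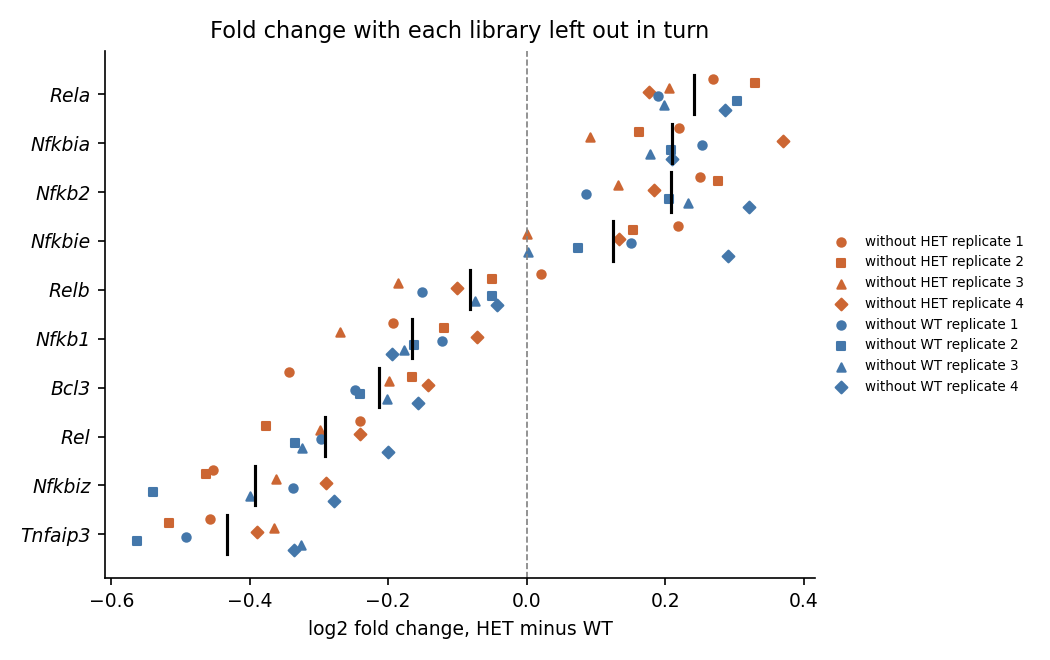
Log2 fold change (HET over WT) of the 10 genes with all libraries (black line) and after leaving out each library in turn (points). The range was widest for Nfkbie (0.001 to 0.29) and Nfkbia (0.09 to 0.37).

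Levels of different genes were compared only per length, as the authors' TPM. By WT mean, Nfkbia stood far above the other genes in all 8 libraries, at 743 ± 200.0 TPM in HET and 661 ± 32.5 TPM in WT (SD, n = 4 each), which was 8.13 times the mean of the next gene in WT. Bcl3 (67.4 ± 9.93 TPM in HET and 81.3 ± 7.33 in WT), Nfkbie (69.7 ± 14.9 and 65.5 ± 15.99), Rela (73.5 ± 10.9 and 64.2 ± 7.37) and Nfkb2 (65.7 ± 9.95 and 58.8 ± 11.98) followed, and their ranges overlapped. Their lowest value in any library, 42.7 TPM (Nfkb2 in WT replicate 1), was above the highest value of Tnfaip3, 21.5 TPM. Tnfaip3 (12.2 ± 1.80 and 17.2 ± 4.39), Rel (12.7 ± 2.06 and 15.98 ± 1.87) and Relb (11.4 ± 2.35 and 12.4 ± 1.32) overlapped with each other. Nfkb1 (8.69 ± 1.63 and 10.1 ± 0.58) overlapped with Relb, and Nfkbiz (4.94 ± 0.85 and 6.72 ± 1.57) was lowest and overlapped with Nfkb1. The order depended on the gene length used. With the longest protein-coding transcript of GENCODE M21 as length, a choice made after the data were seen, Relb moved from rank 8 to 5, Nfkb1 from 9 to 6, Nfkb2 from 5 to 7, Rel from 7 to 8 and Tnfaip3 from 6 to 9, while Nfkbia, Bcl3, Nfkbie and Rela kept the first 4 ranks and Nfkbiz the last. With that length, the Rela over Rel ratio was 2.76 ± 0.643 in HET and 1.88 ± 0.292 in WT (SD, n = 4 each).

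**Figure D4:**
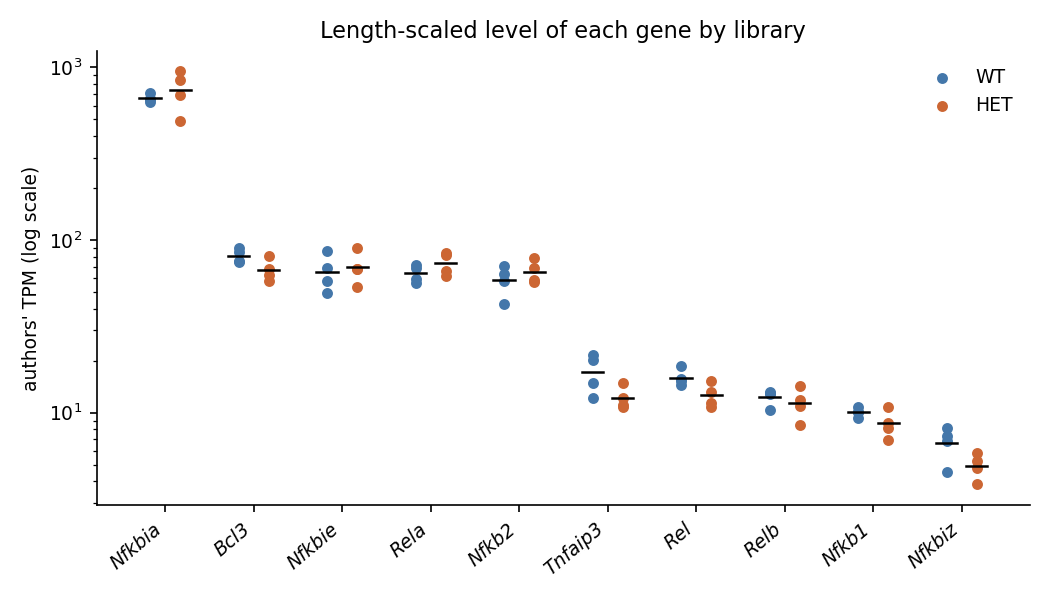
TPM (log axis) of the 10 genes in each library, ordered by the WT mean. Nfkbia lies between 486 and 947 TPM, a group of 4 genes from 42.7 to 89.5 TPM, and the other 5 genes between 3.85 and 21.5 TPM.

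Upstream of the 10 genes, no receptor, signalling or kinase gene of the pathway lists passed the adjusted threshold in edgeR. Of 10 tested receptors, 3 were higher and 7 lower in HET (median log2 fold change −0.12), and Cd40 itself measured 96.9 CPM in HET and 92.9 CPM in WT on average, with a log2 fold change of 0.06 (named after its values were seen). Cd79b, a signalling chain of the B cell antigen receptor, measured 2443, 2658, 2728 and 2290.0 CPM in HET and 3121, 3030, 2978 and 2825 CPM in WT, with no overlap (log2 fold change −0.24, SE 0.06, edgeR adjusted p = 0.354). Its partner Cd79a had a log2 fold change of −0.13 (adjusted p = 0.669). Tlr7 and Tlr4, Toll-like receptors, had −0.34 and −0.58 with adjusted p of 0.776 and 0.839.

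Among 21 proximal signalling genes, 9 were higher and 12 lower (median −0.06). Traf1, an adaptor of TNF receptor family members and itself a known NF-κB target, measured 91.2, 102, 161 and 76.3 CPM in HET and 67.7, 65.4, 45.6 and 36.0 CPM in WT. Every HET library was above every WT library, with a log2 fold change of 1.001 (SE 0.24; 95% interval 0.48 to 1.52; edgeR adjusted p = 0.277; DESeq2 adjusted p = 0.0159). Prkcb, the kinase that links the antigen receptor to IKK, had a log2 fold change of −0.44 (adjusted p = 0.492), Birc2, a ubiquitin ligase of TRAF complexes, −0.42 (adjusted p = 0.625) and Traf6, a ubiquitin ligase below CD40 and Toll-like receptors, −0.52 (adjusted p = 0.696). Of 6 IKK kinase genes, 1 was higher, the adaptor Tank (0.37; adjusted p = 0.643), and 5 were lower, among them Ikbkg, the regulatory IKK subunit (−0.50; adjusted p = 0.769), Tbk1 (−0.26; adjusted p = 0.781) and the catalytic subunit Ikbkb (−0.19; adjusted p = 0.795).

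The other IκB genes, Nfkbid and Nfkbib, had log2 fold changes of −0.12 and −0.02 (edgeR adjusted p = 0.958 and 0.984). Of 10 ubiquitin regulators, which build, edit or read ubiquitin chains in this pathway, 9 were lower and 1 higher (median −0.12), with 0 past the adjusted threshold in either tool. Itch, a ubiquitin ligase that works with A20, measured 57.0, 38.9, 42.5 and 41.2 CPM in HET and 60.3, 51.6, 73.3 and 72.5 CPM in WT (log2 fold change −0.52, SE 0.18, edgeR adjusted p = 0.576). N4bp1, Sharpin and Otulin had log2 fold changes of −0.31, −0.11 and −0.18 with adjusted p of 0.864, 0.889 and 0.895.

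Downstream, 21 of 25 NF-κB target genes were tested, of which 17 were higher and 4 lower in HET (median 0.16). The main edgeR fit called 0 of them. At an unadjusted p under 0.05 in edgeR, 4 were higher and 2 lower, against 3.34% and 3.88% of all tested genes. The 2 with the lowest p were both lower in HET and were also the 2 that DESeq2 called. Il4i1, an amino acid oxidase of activated B cells, measured 298, 294, 371 and 278 CPM in HET and 442, 373, 434 and 589 CPM in WT (log2 fold change −0.57, SE 0.13, edgeR adjusted p = 0.257, DESeq2 adjusted p = 0.0233). Cd83, an activation marker, measured 489.8, 709, 774 and 629 CPM in HET and 907, 777, 974 and 1025 CPM in WT (log2 fold change −0.50, SE 0.13, edgeR adjusted p = 0.299, DESeq2 adjusted p = 0.0488). With no filter on low counts, edgeR called Il4i1 (adjusted p = 0.0241) but not Cd83 (adjusted p = 0.0889). For both genes the groups did not overlap, and the closest pair across them was HET replicate 3 and WT replicate 2. Ccnd2, cyclin D2, and Ebi3, a cytokine subunit, were on the higher side with log2 fold changes of 0.32 and 0.83 (edgeR adjusted p = 0.604 and 0.612). Ccl22, a chemokine named after its values were seen because its fold change lies far outside the others, averaged 60.4 ± 80.0 CPM in HET and 6.58 ± 13.2 CPM in WT (SD, n = 4 each), with an adjusted p of 0.834.

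Immediate early genes, which respond to the antigen receptor and CD40 largely outside NF-κB, were the only list with genes past the adjusted threshold in the main edgeR fit. All 14 tested were lower in HET (median −0.27), and 2 of them passed that threshold. Fos, an AP-1 subunit, measured 76.4, 94.95, 114 and 90.2 CPM in HET and 320.0, 233, 226 and 230.2 CPM in WT, and fell by 1.43 on the log2 scale (SE 0.15, edgeR adjusted p = 0.00206). Jun, its partner, measured 106, 146, 123 and 143 CPM in HET and 219, 233, 256 and 329 CPM in WT, and fell by 1.004 on the log2 scale (SE 0.14, edgeR adjusted p = 0.0411). The call on Fos held when any single library was left out, and the call on Jun held only without WT replicate 1, its adjusted p being 0.0558 to 0.174 without each of the other 7 libraries. Both calls were lost in limma-trend on log2(TPM + 1) (adjusted p = 0.0962 for Fos and 0.221 for Jun), in limma-trend on log2(TPM + 0.1) (0.0542 and 0.296) and with the replicate number as a block in edgeR (0.0619 for both). Zfp36, which promotes decay of AU-rich transcripts, and Dusp1, a MAP kinase phosphatase, passed in DESeq2 (adjusted p = 0.0053 and 0.0456). They did not pass in the main edgeR fit (adjusted p = 0.196 and 0.328). With no filter on low counts, edgeR called Zfp36 (adjusted p = 0.0213) but not Dusp1 (adjusted p = 0.0520).

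**Figure D5:**
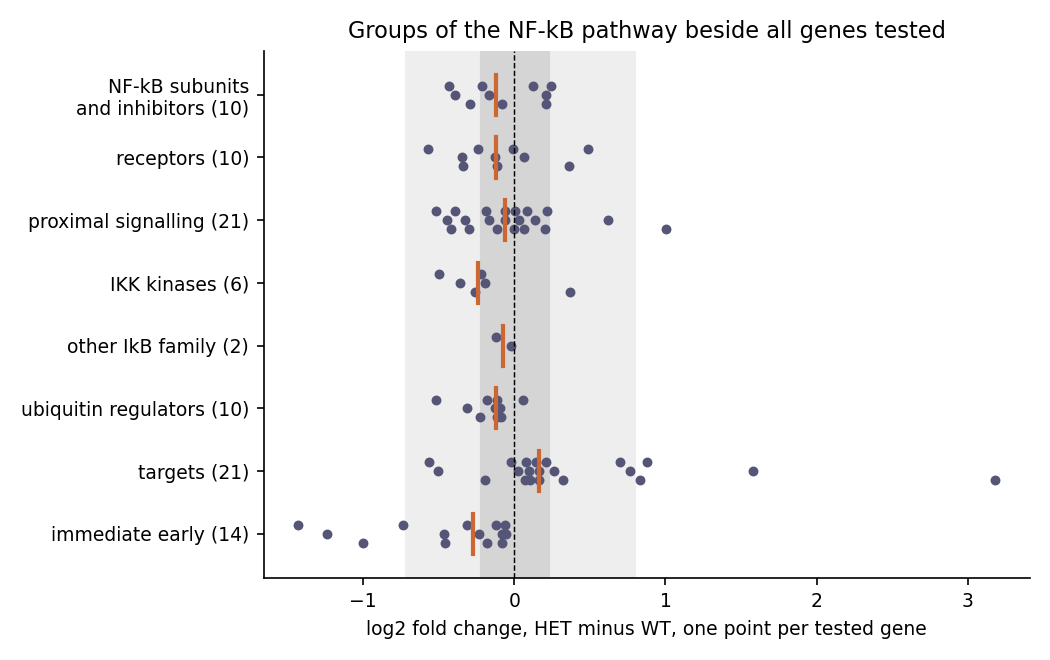
Log2 fold change (HET over WT) of each tested gene of the 10 genes and of the 7 pathway lists, with an orange bar at each list's median. The light and dark bands span the 5th to 95th percentile (−0.72 to 0.80) and the 25th to 75th percentile (−0.22 to 0.23) of all tested genes; Fos (−1.43) lies farthest below them and Ccl22 (3.18) farthest above.

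Cell type markers were not level between the groups, although 0 passed the adjusted threshold in edgeR and 2 did in DESeq2. These 2, named after their values were seen, went opposite ways. The B cell marker Cd22 was lower in HET (DESeq2 adjusted p = 0.0159), and the myeloid and dendritic marker Flt3 was higher (DESeq2 adjusted p = 0.0147). All 10 B cell markers were lower in HET, 8 of them at an unadjusted p under 0.05 in edgeR. Of all tested genes, 3.88% were lower at that threshold. The sum of the 10 markers was 11612 to 13053 CPM in HET and 13591 to 14682 CPM in WT, with no overlap. All 13 tested T cell markers were higher in HET, 0 of them at an unadjusted p under 0.05 in edgeR. Their sums were 355 to 694 CPM in HET and 204 to 523 CPM in WT, and overlapped. Cd4 was at 0 in 5 libraries and at most 0.758 CPM in the rest, whereas Cd3e was found in all 8. All 6 NK cell markers were higher, again 0 of them at that unadjusted threshold, with sums of 54.0 to 187 CPM in HET and 37.2 to 102 CPM in WT. Sums of 14 myeloid and dendritic markers were 71.9 to 256 CPM in HET and 38.6 to 479 CPM in WT, the highest being WT replicate 2, where Lyz2 alone measured 399 CPM; the next highest WT sum was 155 CPM, and Lyz2 was at 0 in WT replicates 1 and 4. Plasmablast markers summed to 242 to 2072 CPM in HET and 205 to 467 CPM in WT, the highest being HET replicate 1, where Jchain alone measured 1576 CPM. GC B cell markers summed to 103 to 151 CPM in HET and 77.5 to 134 CPM in WT. The part of other cell types in the values of the 10 genes was not tested, and in pooled cells a lower share of a cell type cannot be told apart from less of the RNA per cell. As for the labelled cell type, the B cell marker Ms4a1 was at 1430.1 CPM or more in every library.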

How the data were processed

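Libraries of about 200 sorted cells were made by the authors with an adapted SMART-Seq2 protocol. Per the labels and the study's methods, reads were aligned to GRCm38 (mm10) with Hisat2 2.2.1 and read counts per gene were obtained with HTSeq-count. The annotation release and strand setting are not given in the sources used here. The deposited count table holds raw counts for 24259 symbols. The TPM table deposited by the authors holds the same counts divided by 1 length per gene and rescaled to a fixed sum, for 24232 symbols (checked on 7898 genes). SMART-Seq2 has no molecular identifiers, so the floor of 3 counts reflects counting error alone.

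The test was edgeR 4.0.16 in R 4.3.3. Genes passing filterByExpr (12744, with 99.7% of counts) were scaled by TMM and compared between HET and WT over all 8 libraries with no covariate (glmQLFit, robust, and glmQLFTest), with Benjamini-Hochberg adjustment over all genes and a threshold of 0.05. The procedure was tested on simulated data. SE values are the log2 fold change over the square root of F. No 2 libraries agreed within sampling noise. Alternatives were DESeq2 1.42.0 (the study's tool), a replicate block, RLE factors, a filter at a mean of 50 counts, none at all, limma 3.58.1 (voom with quality weights, and trend on log2(TPM + 1) and log2(TPM + 0.1)), 298 immunoglobulin genes left out, and each library left out. Promoter sequences came from RefSeq and positions from GENCODE M21, both on GRCm38.

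The 10 genes and the pathway and marker lists were chosen with earlier results of these data known. All 10 are named whatever their result. From each pathway list, at most 4 genes with the lowest unadjusted p are named, and any other is said to be chosen after its values were seen. No set test was run.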

Additional observations from a re-analysis of the deposited data

Results flagged for a closer look

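In 72 groups of 4 libraries, made of the 10 genes and the named pathway genes in HET and in WT, a library was looked for whose gap to its nearest neighbour took more of the group's range than Dixon's 95% critical value allows. This was met 3 times, where about 1 group in 20, or 3.6 groups, would meet it by chance, and none of the 3 was an NF-κB subunit or inhibitor. Traf6 measured 26.0 CPM in HET replicate 2 and 19.9 to 20.8 CPM in the other HET libraries. Ccnd2 measured 277 CPM in HET replicate 1 and 348 to 360 CPM in the other HET libraries. Fos measured 320.0 CPM in WT replicate 1 and 226 to 233 CPM in the other WT libraries, and its log2 fold change without that library was −1.30 (edgeR adjusted p = 0.00673).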

How the results depend on the processing

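The count of 0 called among the 10 genes held under each alternative run, with adjusted p from 0.482 upward. Over all genes, edgeR called 3, all lower in HET. DESeq2 called 95 (41 higher and 54 lower), no filter 38 (19 and 19), a mean of at least 50 counts 7 (3 and 4), limma-voom 6, limma-trend 0 on log2(TPM + 1) and 1 on log2(TPM + 0.1), and leaving out single libraries 1 to 6. Pathway genes called were 2 in the edgeR fit, 7 with DESeq2 (1 and 6) and 4 with no filter (Fos, Jun, Zfp36 and Il4i1). They were 0 with limma-trend at either pseudocount, and 1 to 2 when a library was left out. Gene length, changed after seeing the data, moved 5 of the 10 ranks of level. The counts of the 10 genes were all at least 155. These are reads and not molecules, and whether depth limited the comparison was not tested.

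With the replicate block, 0 genes and 0 pathway genes were called, Fos and Jun both having an adjusted p of 0.0619. The numbers did not pair the libraries. Deviations of same-numbered libraries correlated at −0.05, 0.01, 0.003 and −0.03, and not every library correlated best with its own number.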
